A study of Mus musculus with 3 samples.

Results

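Antigen-presenting cells of the thymus were picked out of single-cell RNA libraries by their transcripts for major histocompatibility complex (MHC) class II. They were chosen by measured values: a barcode needed at least 500 genes, under 10% mitochondrial counts, at least 20 unique molecular identifiers (UMIs, counted RNA molecules) of Cd74, H2-Aa and H2-Ab1 together, and at most 1 UMI of the epithelial genes Krt8, Krt18, Krt5 and Epcam together. Of 25077 barcodes, 23864 passed the first 2 limits, and 189 of these were members. They were divided by further UMI limits into 96 B members (at least 2 UMIs of Cd79a), 16 plasmacytoid members (at least 2 of Siglech), 16 macrophage members (at least 3 of C1qa and C1qb) and 61 other dendritic members (the rest). No barcode passed the limits of more than 1 of these gates.

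The study, whose title concerns p53 dimers and an altered metabolic program, profiled the whole thymus of female mice aged 4 weeks. There were 3 libraries, 1 for each of the genotypes p53+/-, p53 AD/- and p53-/-. The AD allele is not spelled out in the labels, and the group labelled p53+/- is called wild type in the design text; every group therefore carries at least 1 p53 allele that is either null or AD. The strain labels give a mix of BALB/C and C57BL with a different last digit in each library, which was read as 1 mixed background. With 1 library per genotype, no difference between genotypes could be tested, and a mouse and its genotype cannot be told apart. Intervals given below are exact 95% intervals, and they cover counting error only. UMIs of Trp53 were present in members of all 3 libraries, including 24 in B members of p53-/-; a count for the whole gene cannot tell a deleted allele from an intact one, so this checks nothing about the labels.

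In the thymus, developing T cells are shown self peptides on MHC molecules, and strongly reactive cells are deleted or diverted. Class II molecules are made by epithelial cells and by cells of blood origin: dendritic cells that cross-present or arrive from the periphery, mature dendritic cells that have turned on chemokines and costimulatory proteins, plasmacytoid dendritic cells, macrophages that clear dying thymocytes, and thymic B cells. Within such cells the invariant chain Cd74 guides class II dimers to endosomes, cathepsins trim it, and H2-DM exchanges its last fragment for peptide under the brake of H2-O. The transactivator Ciita switches the whole set on through short promoter elements called the X and Y boxes.

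Those elements are shown in the promoters of class II genes: H2-Aa is one of the genes that chose the members, and the others are genes of the pathway whose levels were measured in them. Each line holds the 120 bases before the transcription start from RefSeq, read 5′ to 3′ on the gene's own strand, in GRCm38.p6, and capitals mark the letters searched for: the Y box core ATTGG, the X1 letters AGCAAC and the X2 letters TGACG, each on both strands. H2-Aa lies at chr17:34287824-34287943 on the minus strand. The others lie on the plus strand, H2-Eb1 at chr17:34305747-34305866, H2-DMb2 at chr17:34145129-34145248, H2-Oa at chr17:34092259-34092378 and H2-Ob at chr17:34238785-34238904.
H2-Aa: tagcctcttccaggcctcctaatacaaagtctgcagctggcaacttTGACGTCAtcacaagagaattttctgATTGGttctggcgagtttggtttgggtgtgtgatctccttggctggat
H2-Eb1: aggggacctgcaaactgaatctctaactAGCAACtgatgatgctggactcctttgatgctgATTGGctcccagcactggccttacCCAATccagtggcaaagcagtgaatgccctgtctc
H2-DMb2: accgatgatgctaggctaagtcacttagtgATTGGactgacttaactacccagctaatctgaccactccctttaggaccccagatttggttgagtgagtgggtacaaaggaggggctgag
H2-Oa: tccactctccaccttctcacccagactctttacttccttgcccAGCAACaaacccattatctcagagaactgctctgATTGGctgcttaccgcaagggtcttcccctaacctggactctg
H2-Ob: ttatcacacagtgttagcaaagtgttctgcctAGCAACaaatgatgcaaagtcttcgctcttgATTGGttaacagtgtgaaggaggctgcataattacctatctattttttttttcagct
The Y letters began 48 bases before the start of H2-Aa, 59 before H2-Eb1, 90 before H2-DMb2, 43 before H2-Oa and 57 before H2-Ob. H2-Eb1 held a further copy on the other strand 35 bases before its start, and the X2 letters of H2-Aa overlapped their own other-strand match. Of 9 class II genes looked up, 8 had a window, and 7 of these 8 held the Y letters and 4 the X1 letters. H2-DMa held none of the searched letters. Over all 32851 promoter windows of this length, 21.3% held the Y letters, 6.34% the X1 letters, 11.7% the X2 letters and 1.35% both Y and X1. A match describes letters only.

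The counts that chose the members left few barcodes near the limit. The median non-member had 0 UMIs of the 3 class II genes, and the highest non-member with few epithelial UMIs had 14, 19 and 18 UMIs in p53+/-, p53 AD/- and p53-/-. Between 10 and 19 UMIs lay 4, 5 and 11 non-members, and between 20 and 29 lay 4, 2 and 8 members. The libraries held 46498800, 27638820 and 54164425 UMIs in the same order, with median UMIs per filtered barcode of 3238.5, 2484 and 3062. Members were larger, with median UMIs of 11656, 8290 and 8500. Pairs of libraries shared 15 to 29 barcode sequences, of which at most 1 per pair belonged to a member of either library and 0 to members of both. No doublets were removed; 5, 4 and 11 members had at least 0.5% of their UMIs from 14 thymocyte markers, the limit used for leaving out possible doublets.

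The p53 AD/- library differed from the others in a property that touches the results below. Malat1, a nuclear noncoding RNA, made up under 0.5% of UMIs in 17 of 43 members of p53 AD/- (39.5%), against 1 of 43 (2.33%) in p53+/- and 7 of 103 (6.80%) in p53-/-. Among non-members the shares were 16.7%, 4.66% and 4.18%. In p53 AD/-, 8 of 15 other dendritic, 7 of 23 B and 2 of 3 macrophage members fell under the limit, against 0 of 16, 0 of 17 and 1 of 3 in p53+/- and 2 of 30, 2 of 56 and 2 of 10 in p53-/-. The shares, the counts of genes, the medians of the main gene lists and the ratios of most genes named below were recomputed without these barcodes; the marker levels and the immunoglobulin and Apoe classes were not. The origin of these barcodes was not tested.

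Members made up 0.528% (0.382 to 0.710) of filtered barcodes in p53+/-, 0.697% (0.505 to 0.937) in p53 AD/- and 1.08% (0.882 to 1.31) in p53-/-. The intervals of p53+/- and p53-/- do not overlap, while that of p53 AD/- overlaps both. The share stayed highest in p53-/- when the class II limit was set to 0.5% of a barcode's UMIs, with 0.515%, 0.664% and 1.03%. Leaving out barcodes low in Malat1 brought p53 AD/- to 0.507%, next to 0.540% in p53+/- and 1.05% in p53-/-. These are shares of a suspension made up mostly of thymocytes, so more antigen-presenting cells and fewer thymocytes cannot be told apart.

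The B members were the largest subgroup and followed the same order. They numbered 17, 23 and 56, or 0.209% (0.122 to 0.334), 0.373% (0.236 to 0.559) and 0.587% (0.444 to 0.761) of filtered barcodes, and the intervals of p53+/- and p53-/- do not overlap. Other dendritic members were 0.196% (16 barcodes), 0.243% (15) and 0.314% (30), with overlapping intervals. Macrophage members were 0.0368% (3), 0.0486% (3) and 0.105% (10), and plasmacytoid members 0.0859% (7), 0.0324% (2) and 0.0734% (7), and at these numbers no difference was detectable.

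**Figure D1:**
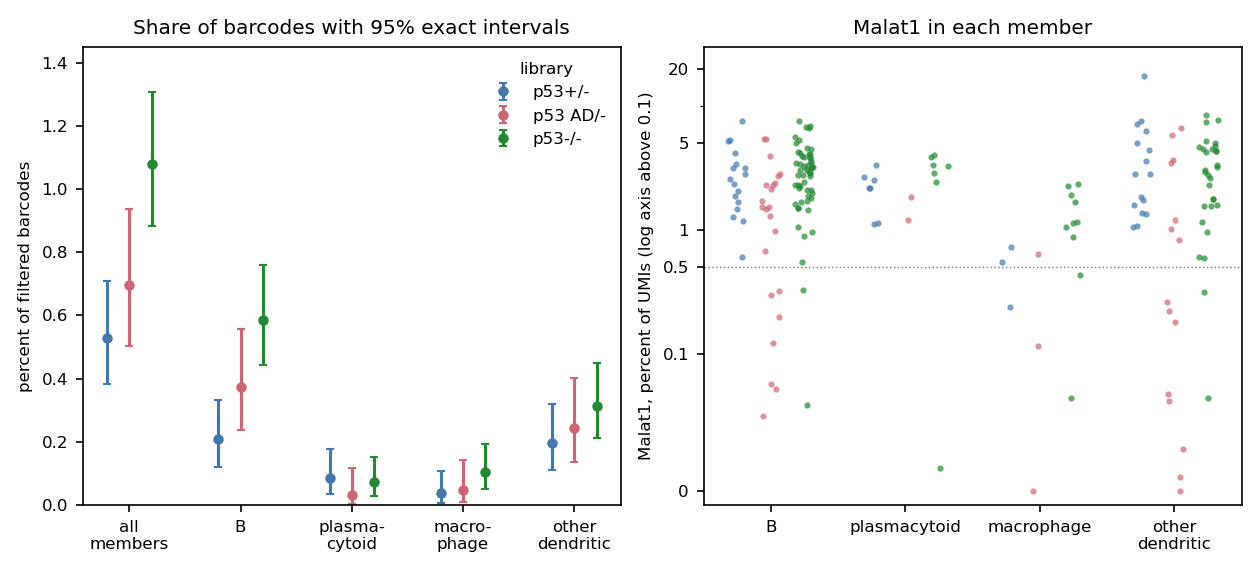
Left, share of filtered barcodes in percent (y axis) for all members and each subgroup, by library, with exact 95% intervals; right, Malat1 as a percent of UMIs in each member (1 point each; y axis logarithmic above 0.1), with a dotted line at 0.5. All members and B members are highest in p53-/-, and points under the line lie mostly in p53 AD/-, where 17 of 43 members fall below it.

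The marker genes that the rule did not use separated the subgroups as their names say. Ctss, a cathepsin that trims the invariant chain, reached 368 CPM (UMIs of the gene for every 1000000 UMIs of the group) in B members, 760 in plasmacytoid, 649 in other dendritic and 3187 in macrophage members, over the 3 libraries together. Cst3, a cathepsin inhibitor typical of dendritic cells, had 254, 1857, 15012 and 2246 CPM in B, plasmacytoid, other dendritic and macrophage members. Tyrobp, a signalling adaptor of myeloid and plasmacytoid cells, was at 10.3 CPM in B members and at 5553, 598 and 2319 CPM in the other subgroups in the same order. The B members were thus nearly without 1 of the 6 genes listed as marks of the whole population, while they carried their own markers: Ms4a1 (CD20) with 859 UMIs against 5 in all other members, and Ebf1, a B lineage factor, with 450 against 10.

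Plasmacytoid members were led by Klk1, a kallikrein, with 267 UMIs against 0 in all other members, and by Runx2, a factor of plasmacytoid egress from bone marrow, with 94 against 18. They held 2228 CPM of Irf8 and 1761 CPM of Tcf4, the lineage-defining E protein, which stood at 287, 87.9 and 86.1 CPM in B, macrophage and other dendritic members. Macrophage members held 1150 UMIs of C1qc, a complement subunit, against 3 in the rest, and 116 of Igf1 against 2. Other dendritic members were led by Apol7c with 315 UMIs against 1, Xcr1 (the receptor of cross-presenting cells) with 185 against 0 and Serpinb6b with 555 against 10. Ccl5, a chemokine, had 2286 UMIs against 22, but 1 barcode held 47.6% of them. These genes were found in the barcodes that the rule had divided and are a description.

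**Figure D2:**
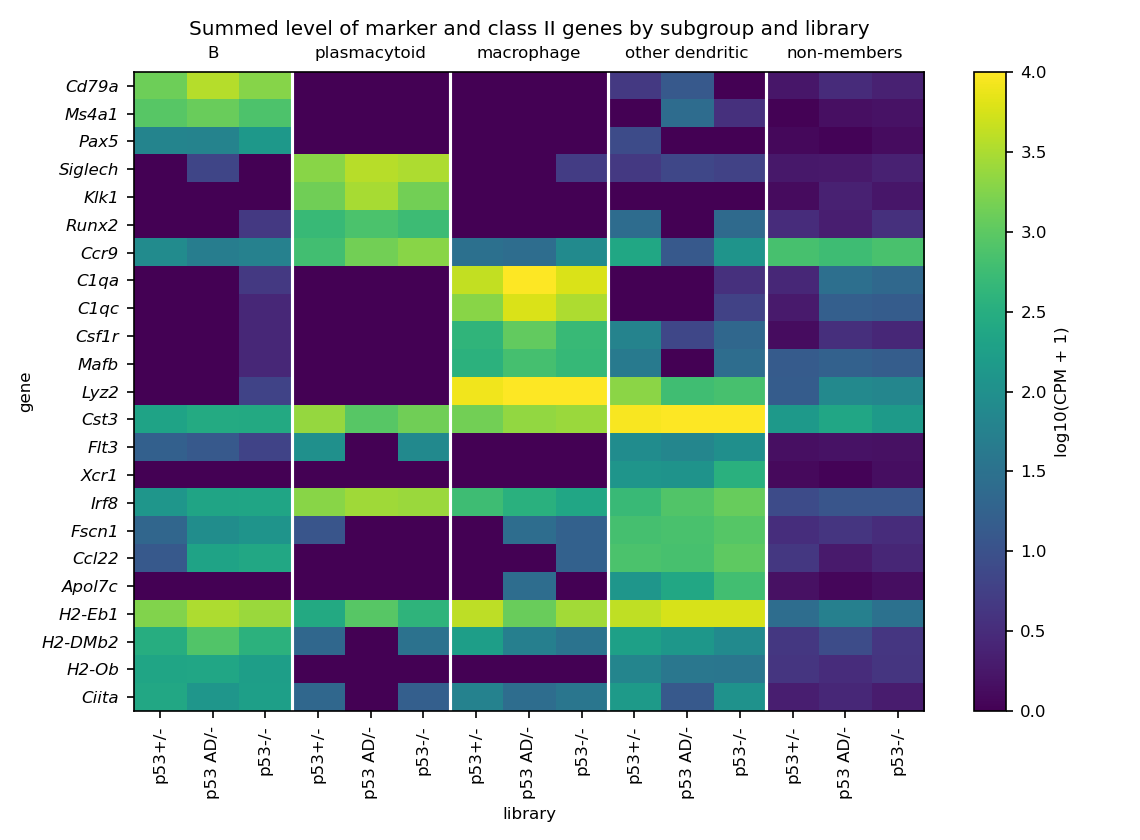
Colour gives log10(CPM + 1) of summed UMIs for marker and class II genes (rows, y axis) in each subgroup and library (columns, x axis), with non-members at the right. Cd79a to Pax5 are high in B columns, Siglech to Runx2 in plasmacytoid and C1qa to Lyz2 in macrophage columns, in each of the 3 libraries. Xcr1 and Fscn1 to Apol7c are high in other dendritic columns in each library. Irf8 is higher in plasmacytoid than in other dendritic columns in each library.

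Genes of the class II pathway outside the rule differed in level between the subgroups. H2-Eb1, the beta chain of the other class II isotype, stood at 5205 CPM in other dendritic, 2836 in macrophage, 2456 in B and 371 in plasmacytoid members. The peptide exchange chain was split by subgroup: H2-DMb2 was at 433 CPM in B members and 125, 62.4 and 22.5 in other dendritic, macrophage and plasmacytoid members, whereas H2-DMb1 was at 64.7 CPM in B members and 387, 360 and 197 in those. The 2 genes are close copies of each other, so reads may have been divided between them by the counting. H2-Ob, the beta chain of the H2-O brake, had 199 CPM in B and 46.1 in other dendritic members and 0 UMIs in macrophage and plasmacytoid members. H2-Oa was also highest in B members with 202 CPM, against 55.8, 8.51 and 61.9 in other dendritic, macrophage and plasmacytoid members, so plasmacytoid members differed between the 2 genes. Ciita was at 190 CPM in B members, 103 in other dendritic, 39.7 in macrophage and 16.9 in plasmacytoid members, an order that differs from that of H2-Eb1. Ifi30, the lysosomal thiol reductase that opens disulphide bonds of antigens, was highest in macrophage members with 2033 CPM, against 1067, 968 and 730 in other dendritic, plasmacytoid and B members.

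Pairs of libraries were compared gene by gene on UMIs summed over the members of 1 subgroup, with a ratio of 2 or more counted as a difference and genes under 30 UMIs over the pair left out. Every 2 pairs share a library, so they are not independent. In B members, 94 of 1760 genes (5.34%) were higher in p53 AD/- than in p53+/- and 210 (11.9%) were lower; with TMM scaling the numbers were 120 and 171, and without members high in thymocyte markers the number lower was 117. Of 3351 genes, 205 (6.12%) were higher in p53-/- than in p53+/- and 107 (3.19%) lower. Of 2966 genes, 70 (2.36%) were higher in p53 AD/- than in p53-/- and 373 (12.6%) lower. The 14 thymocyte markers together made up 1576, 1205 and 1086 CPM in B members of p53+/-, p53 AD/- and p53-/-, with Ptcra at 0 UMIs in the first 2, against 9558, 10775 and 9168 CPM in non-members. In the p53+/- sum, 3 cycling B members (at least 5 UMIs of Mki67 and Top2a) held 35350, 51924 and 37484 of 251243 UMIs. Cycling B members numbered 3 of 17, 1 of 23 and 6 of 56 by library. Of 11 measured cell cycle genes, 6 were lower in p53 AD/- than in p53+/- and 0 higher, against 11.9% and 5.34% of all genes. Their median log2 ratio was -1.06, with 0.15 in non-members. No ratio was computed without all 3 cycling members of p53+/-.

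Immediate early genes, which are switched on within minutes of receptor signalling or stress, were higher in B members of p53-/- than of p53+/-. Over all genes, 6.12% were higher by a ratio of 2 or more, 3.19% were lower and 1627 of 3351 lay above equality. Of 20 immediate early genes measured of a list of 27, 10 were higher by that ratio and 0 lower, and 18 lay above equality. Their median log2 ratio was 0.999, with -0.02 over all genes in B members and 0.21 for the list in non-members. Without the members high in thymocyte markers the median was 0.61, and 8 of 19 were higher and 1 lower. Those left out included 1 of the 3 large cycling B members of p53+/- given above. Another of the 3 was a secreting member (described below), and without secreting members the median was 1.08. Nr4a1, a nuclear receptor induced by antigen receptor signals, had 6, 4 and 98 UMIs (23.9, 23.9 and 177 CPM) in p53+/-, p53 AD/- and p53-/-. The 98 UMIs were spread over barcodes, the highest holding 9.18% of them, and the log2 ratio of p53-/- over p53+/- was 2.89 (1.71 to 4.37), against 1.27 in non-members. Junb, an AP-1 subunit, had 73, 75 and 543 UMIs (291, 447 and 978 CPM), with a log2 ratio of 1.75 (1.40 to 2.12) and 1.21 in non-members. For Nr4a1 and Junb, non-members thus differed the same way by a smaller amount.

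Other members of the list were also higher in B members of p53-/-. For Egr1, Egr3, Dusp2 and Zfp36, non-members lay slightly the other way. Egr1, a zinc finger factor downstream of ERK, had 31, 5 and 171 UMIs (123, 29.8 and 308 CPM), with a log2 ratio of 1.32 (0.76 to 1.92) for p53-/- over p53+/- and -0.23 in non-members. Egr3, its relative, had 6, 0 and 51 UMIs, and its log2 ratio was 1.94 (0.72 to 3.46) with -0.34 in non-members. Dusp2, a phosphatase that switches off MAP kinases, had 12, 29 and 122 UMIs (47.8, 173 and 220 CPM), with a log2 ratio of 2.20 (1.35 to 3.19) and -0.19 in non-members, so p53 AD/- was high as well. Zfp36, a protein that marks messenger RNAs for decay, had 20, 13 and 107 UMIs, with a log2 ratio of 1.28 (0.58 to 2.04) and -0.13 in non-members. The antiproliferative gene Btg1, with 166, 169 and 819 UMIs, had a log2 ratio of 1.16 (0.92 to 1.41), and the NF-kappaB inhibitor Nfkbia, with 48, 87 and 222 UMIs, one of 1.07 (0.61 to 1.55).

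For the classical Fos and Jun genes the ratio rested on a few barcodes. Fos had 96, 21 and 273 UMIs (382, 125 and 492 CPM) in B members, and its log2 ratio of p53-/- over p53+/- was 0.36 (0.02 to 0.72). Jun had 75, 16 and 85 UMIs, with a log2 ratio of -0.96 (-1.43 to -0.50), and 77.3% of the UMIs in p53+/- lay in 1 barcode. Without the 4 B members that resembled antibody-secreting cells (described below), Jun had 17 and 57 UMIs in p53+/- and p53-/- and its log2 ratio turned to 0.54 (-0.26 to 1.41), while Fos had 36 and 169 and a log2 ratio of 1.02 (0.50 to 1.59). With all B members, between p53 AD/- and p53-/-, 0 of 20 measured list genes were higher and 7 lower, against 2.36% and 12.6% of all genes, with a median of -0.71 and -0.48 in non-members; the median was -0.47 with at least 100 UMIs over the pair. Against p53+/-, p53 AD/- had 4 of 15 higher and 4 lower, against 5.34% and 11.9% of all genes, and the pattern was mixed.

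**Figure D3:**
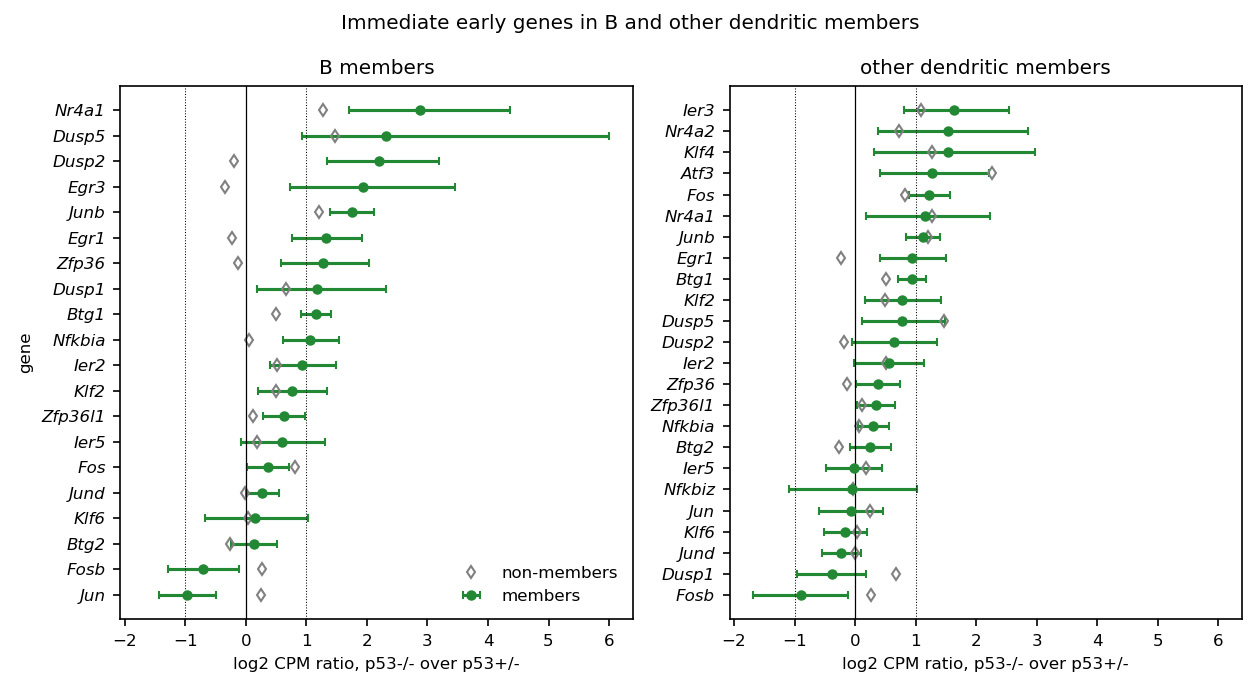
Log2 CPM ratio of p53-/- over p53+/- (x axis) for each measured immediate early gene (y axis), in B members (left) and other dendritic members (right); points with bars are members with exact 95% intervals for counting error, diamonds are non-members, and dotted lines mark a ratio of 2. In B members 18 of 20 points lie above 0 and 10 beyond a ratio of 2; in other dendritic members 7 of 24 lie beyond it. Of all genes in B members, 1627 of 3351 lay above 0 and 6.12% were higher by a ratio of 2 or more. In other dendritic members 5.1% of all genes were.

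Activation and trafficking genes found by rank or on other lists are given beside these. Gadd45b, a stress-induced partner of MAP kinase kinases, had 4 UMIs in B members of p53+/-, 9 in p53 AD/- and 52 in p53-/-, and Bhlhe40, a repressor induced on lymphocyte activation, had 4, 6 and 62. Their log2 ratios of p53-/- over p53+/- were 2.56 (1.11 to 4.49) for Gadd45b and 2.81 (1.38 to 4.73) for Bhlhe40, with 0.64 and 1.22 in non-members. Ccr7, the receptor that guides cells to lymphoid tissue, had 5, 8 and 62 UMIs (19.9, 47.7 and 112 CPM) and a log2 ratio of 2.49 (1.19 to 4.16). Cd83, an activation marker that stabilises class II at the surface, was at 51.7, 197 and 193 CPM, and so was high in both p53 AD/- and p53-/-. Gpr183, a receptor for oxysterols that positions B cells, had 19, 51 and 204 UMIs (75.6, 304 and 367 CPM), and was also high in both. In p53+/-, 1 barcode held 57.9% of Gpr183 UMIs. Slpi, a protease inhibitor, had 0, 8 and 879 UMIs, but 3 antibody-secreting barcodes held 872 of those in p53-/- and the other 53 B members held 7. Ccl22 had 3, 35 and 139, with 58.3% in 1 barcode.

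In summed counts, class II genes themselves were higher in B members of p53 AD/- than in those of p53+/-. Of 9 measured class II pathway genes outside the rule, 4 were higher and 1 lower, against 5.34% and 11.9% of all genes, and the median log2 ratio was 0.999, with 0.81 in non-members. The median was 0.52 with the mean over cells in place of the sum, and without barcodes low in Malat1 2 of 9 were higher and 0 lower. H2-DMb2 stood at 314, 823 and 369 CPM in p53+/-, p53 AD/- and p53-/-, with a log2 ratio of p53 AD/- over p53+/- of 1.39 (0.98 to 1.81) in B members and 1.16 in non-members. Ifi30 was at 430, 1288 and 697 CPM, with a log2 ratio of 1.58 (1.24 to 1.93) and 0.995 in non-members. H2-Eb1 was at 1751, 3251 and 2535 CPM, with a log2 ratio of 0.89 (0.71 to 1.08) and 1.06 in non-members. Non-members, in which class II transcripts are rare, thus differed the same way in these 3 genes, within the interval of B members for H2-DMb2 and H2-Eb1 and below it for Ifi30. H2-DMa was an exception, with 251, 501 and 375 CPM and a log2 ratio of 0.999 (0.51 to 1.49) against 0.11 in non-members. The 3 cycling B members of p53+/- given above held 35350, 51924 and 37484 of 251243 UMIs. They held only 7, 16 and 21 of the 440 H2-Eb1 UMIs, which lowered the H2-Eb1 level in the p53+/- sum. How much of the class II difference came from these members was not tested. Since the cells were chosen on Cd74, H2-Aa and H2-Ab1, no test of the pathway's level is made from them.

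Ciita, the transactivator of these genes, lay the other way in the summed counts. It had 63, 21 and 101 UMIs in B members (251, 125 and 182 CPM), and its log2 ratio of p53 AD/- over p53+/- was -1.001 (-1.79 to -0.27), against 0.59 in non-members. The ratio was -0.77 (-1.66 to 0.04) without barcodes low in Malat1 and -0.59 (-1.43 to 0.21) without members high in thymocyte markers, so the interval then held equality. In other dendritic members Ciita had 42, 2 and 41 UMIs. The p53 AD/- library was thus lowest in both subgroups, while H2-Eb1 was at 4125, 5758 and 5753 CPM in the other dendritic members. Barcodes low in Malat1 were also most frequent in p53 AD/-, as given above.

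Interferon-stimulated genes were higher in B members of p53 AD/- than of p53+/-. Over all genes, 5.34% were higher by a ratio of 2 or more, 11.9% were lower and 767 of 1760 lay above equality. Of 10 measured interferon-stimulated genes, 4 were past a ratio of 2, 0 were lower and all 10 lay above equality. Their median log2 ratio was 0.89, against 0.27 in non-members and -0.10 over all genes in B members; it was 0.61 without barcodes low in Malat1, where 1 of 8 passed a ratio of 2, and 0.58 with the mean over cells. Ifi27l2a had 383, 566 and 1164 UMIs (1524, 3376 and 2097 CPM), with a log2 ratio of p53 AD/- over p53+/- of 1.15 (0.96 to 1.34) and 0.41 in non-members. Ly6a (Sca-1) was at 1023, 2183 and 1142 CPM, with a log2 ratio of 1.09 (0.86 to 1.33) and 0.84 in non-members; without barcodes low in Malat1 it was 0.70 (0.42 to 0.98). Irf7, the factor that amplifies type I interferon, had 8, 26 and 50 UMIs, 62.5% of the first in 1 barcode. Psmb10, an immunoproteasome subunit found by rank, had 16, 42 and 58 UMIs (63.7, 251 and 104 CPM), with a log2 ratio of 1.98 (1.11 to 2.91) against 0.38 in non-members. Klf2, a quiescence and trafficking factor, was at 135, 441 and 229 CPM, with a log2 ratio of 1.71 (1.10 to 2.34) and 0.99 in non-members. Non-secreting B members with at least 1 Ighd UMI were 4 of 17, 13 of 23 and 23 of 56 in p53+/-, p53 AD/- and p53-/-. In the summed counts of B members, here and above, a different make-up and a different level per cell cannot be told apart.

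Metabolic lists were examined because the study's title names metabolism. In B members, 0 of 8 measured glycolysis genes passed a ratio of 2 between p53 AD/- and p53+/- in either direction, against 5.34% higher and 11.9% lower of all genes. The median log2 ratio was -0.0043, against 0.56 in non-members, but it was -0.66 without barcodes low in Malat1, with 3 of 8 lower, and 0.65 with the mean over cells, so no direction can be given. Of 71 nuclear-encoded respiratory chain genes, 2 were higher and 2 lower, with a median of -0.17, and of 0.17 with the mean over cells. Of the 13 mitochondrially encoded genes, 6 were lower, against 11.9% of all genes, with a median of -0.78 and -0.84 in non-members; without barcodes low in Malat1, 3 were. Targets of p53 were mostly too rare to compare, with 6 of 35 measured for p53-/- over p53+/-. Of these, 0 passed a ratio of 2 in either direction, against 6.12% higher and 3.19% lower of all genes. With 6 genes, 0 is near those shares. Cdkn1a (p21) had 0, 0 and 1 UMIs in B members.

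The B members were mixed in their immunoglobulin state, in classes that were set after the values had been seen. IgM or IgD led the heavy chain UMIs in 12 of 17, 19 of 23 and 36 of 56 B members of p53+/-, p53 AD/- and p53-/-, and IgA led in 2, 0 and 12. The 0 of 23 in p53 AD/- allows an IgA share of up to 14.8%. By Jchain counts of 100 or more, 1 of 17, 0 of 23 and 3 of 56 resembled antibody-secreting cells. These few barcodes held most of several genes: 1 barcode had 99.3% of the 768 Jchain UMIs of p53+/-, and 53.7% of the 2899 of p53-/- lay in 1 barcode, against 39 UMIs in p53 AD/-. Ighm had 1474, 303 and 554 UMIs, and 71.4% of the first lay in 1 barcode. Without the secreting members the log2 ratio of Jchain in p53 AD/- over p53+/- turned from -3.72 to 3.33. Kappa exceeded lambda light chains in 14 of 17, 19 of 23 and 47 of 56 B members.

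Apoe, the lipid carrier best known from macrophages, was abundant in B members. It had 429, 373 and 695 UMIs (1708, 2225 and 1252 CPM) in p53+/-, p53 AD/- and p53-/-, against 223, 0 and 185 CPM in other dendritic members and 36.4, 123 and 102 CPM in non-members. Of the Apoe UMIs of other dendritic members, 1 barcode held 96.8% in p53+/- and 1 held 83.1% in p53-/-. Apoe made up nearly all of the macrophage marker signal of B members, 1497 of 1519 UMIs over 21 markers, of which 10 were at 0 UMIs and C1qc had 1 UMI. No single B member held more than 18.2% of the Apoe UMIs of its library. At least 10 Apoe UMIs were found in 9 of 17, 8 of 23 and 20 of 56 B members, and in 0 of the 4 secreting ones. It was uneven between B members with and without IgD. Among those with at least 1 Ighd UMI, 7 of 40 reached 10 Apoe UMIs, and among those without, 30 of 52, at median depths of 4647.5 and 9434.5 UMIs. Per UMI the order was not the same in every library: Apoe stood at 4569, 815 and 507 CPM in Ighd-positive and 1487, 3296 and 1756 CPM in Ighd-zero B members, so p53+/- with 4 Ighd-positive barcodes went against the other libraries. An IgA, IgE or IgG chain led in 25 of the 52 and 0 of the 40. Ighd UMIs count towards the IgM or IgD lead, so this lead is not independent of the split. At least 3 UMIs of IgA, IgE or IgG chains were found in 40 of the 52 and 5 of the 40. Aire, the regulator that thymic B cells can share with medullary epithelium, was seen in 1, 2 and 6 B members with 3, 7 and 10 UMIs.

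**Figure D4:**
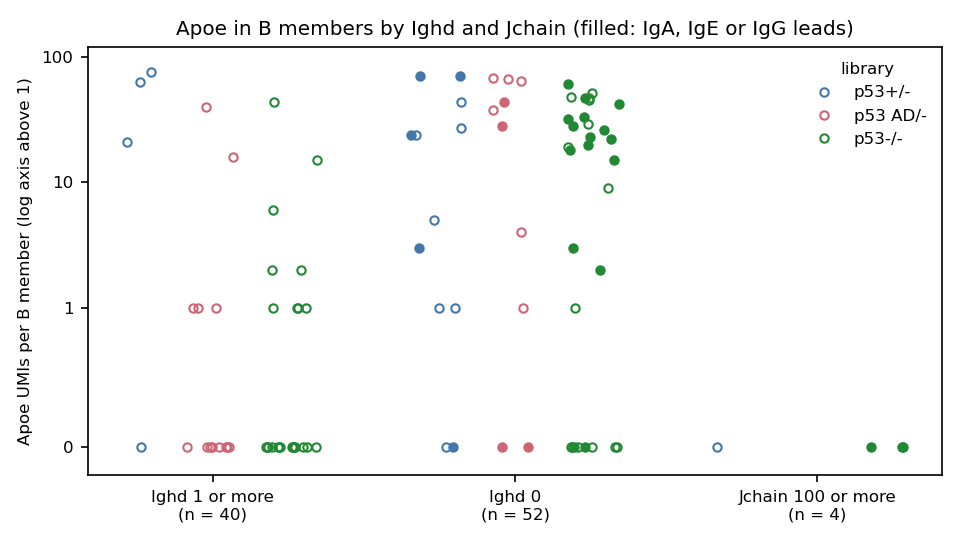
Apoe UMIs in each B member (y axis, logarithmic above 1; 1 point per barcode, spread sideways for sight) in those with at least 1 Ighd UMI, with 0 Ighd UMIs, or with at least 100 Jchain UMIs (x axis), coloured by library and filled where IgA, IgE or IgG leads the heavy chains. Apoe reached 10 UMIs in 7 of 40, 30 of 52 and 0 of 4 of them.

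The 61 other dendritic members were divided once more. Mature members, with at least 3 UMIs of Fscn1 and Ccl22 together, were 10 of 16, 6 of 15 and 14 of 30 in p53+/-, p53 AD/- and p53-/- (62.5%, 40% and 46.7%). Type 1 members, with at least 2 UMIs of Xcr1 and Clec9a together, were 2, 4 and 7, type 2 members, with at least 2 UMIs of Cd209a, Sirpa and Mgl2 together, were 2, 1 and 1, and 2, 4 and 8 passed none of these limits. At these numbers no difference in make-up between libraries was detectable. In each of the 3 libraries 1 mature member also passed another gate.

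**Figure D5:**
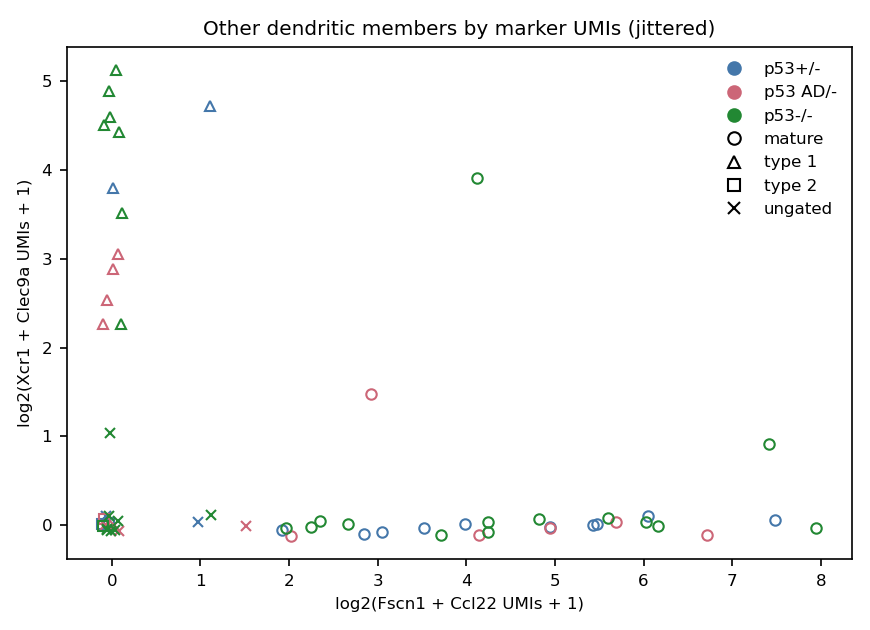
Each other dendritic member by its summed UMIs of the mature markers (x axis, log2(Fscn1 + Ccl22 UMIs + 1)) and of the type 1 markers (y axis, log2(Xcr1 + Clec9a UMIs + 1)), slightly jittered, with colour for library and shape for gate. The 30 mature members spread along the x axis and the 13 type 1 members along the y axis, and 2 mature members passed both limits.

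Mature members carried the chemokine and costimulatory set known for such cells. They held 1011 CPM of Ccr7, 839 of Il4i1 (an amino acid oxidase), 554 of Relb (an NF-kappaB subunit required for dendritic maturation), 315 of Cd40 and 199 of Cd86 over the 3 libraries. Apol7c, an apolipoprotein L family gene found by rank, had 315 UMIs in mature members and 0 in the other dendritic gates. Type 1 members held 1806 CPM of Ppt1, a lysosomal thioesterase, with 512 UMIs against 54 in the other dendritic gates, and 1601 of Irf8, the factor that specifies them. Cst3 reached 25916 CPM in type 1 and 11277 in mature members. The 4 type 2 members were too few to describe. The ungated ones were mixed: Lyz2, a myeloid lysozyme, had 1, 0 and 261 UMIs in them by library, and Cst3 had 0, 90 and 578.

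Among other dendritic members, 101 of 1972 genes (5.12%) were higher in p53 AD/- than in p53+/- and 241 (12.2%) lower. Of 2958 genes, 151 (5.1%) were higher in p53-/- than in p53+/- and 127 (4.29%) lower. Of 2377 genes, 81 (3.41%) were higher in p53 AD/- than in p53-/- and 321 (13.5%) lower. Thymocyte markers together stood at 1827, 1404 and 1258 CPM in these members, and the 21 macrophage markers at 2722, 794 and 1089 CPM, with C1qc at 0 UMIs in p53+/- and p53 AD/-. Without members high in thymocyte markers the numbers higher and lower were 99 and 272, 149 and 163, and 67 and 278 in the 3 pairs. The part of the macrophage markers in the counts was not tested.

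Mitochondrially encoded genes were lower in other dendritic members of p53 AD/- than of p53+/-. Of 12 measured, 11 were lower and 0 higher, against 12.2% and 5.12% of all genes. The median log2 ratio was -1.83 against -0.77 in non-members. Without barcodes low in Malat1 it was -1.35, with 7 of 12 lower. mt-Nd1, a complex I subunit, had 498, 70 and 624 UMIs (1791, 431 and 1625 CPM) in p53+/-, p53 AD/- and p53-/-. Its log2 ratio of p53 AD/- over p53+/- was -2.05 (-2.44 to -1.69), against -1.03 in non-members. mt-Co1, a complex IV subunit, was at 6760, 2876 and 5446 CPM, with a log2 ratio of -1.23 (-1.38 to -1.09) and -0.43 in non-members, and -0.68 (-0.85 to -0.51) without barcodes low in Malat1. Nuclear-encoded respiratory chain genes did not share this: of 69 measured, 1 was higher and 0 lower, against 5.12% and 12.2% of all genes. Their median was 0.28, and -0.011 without barcodes low in Malat1. Between p53-/- and p53+/-, 0 of 13 mitochondrially encoded genes passed a ratio of 2 in either direction, against 5.1% higher and 4.29% lower of all genes. Malat1 itself was at 32738, 15366 and 35706 CPM in these members, so it was lowest in the same library.

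Glycolysis genes were slightly higher in other dendritic members of p53 AD/-. Of 10 measured, 3 were higher than in p53+/- and 0 lower, against 5.12% and 12.2% of all genes, with a median log2 ratio of 0.77 and 0.56 in non-members; without barcodes low in Malat1 the median was 0.46 and 1 of 7 was higher. Eno1 (enolase) had 27, 54 and 29 UMIs (97.1, 333 and 75.5 CPM), with a log2 ratio of p53 AD/- over p53+/- of 1.78 (1.08 to 2.50) and 0.95 in non-members. Ldha (lactate dehydrogenase) had 40, 62 and 93 UMIs (144, 382 and 242 CPM), with 1.41 (0.81 to 2.02) and 0.51 in non-members. Pkm (pyruvate kinase) had 32, 39 and 58 UMIs, with 1.06 (0.35 to 1.78) and 0.76; without barcodes low in Malat1 it was 0.68 (-0.34 to 1.63). In p53-/- Eno1 was near its p53+/- level within counting error, while Ldha lay between the other libraries.

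Genes of the glucocorticoid response were lower in other dendritic members of p53 AD/- than of p53+/-, 5 of 6 measured of a list of 17, against 12.2% of all genes, with a median log2 ratio of -1.56 and -0.52 in non-members. With at least 1 UMI over the pair, 14 genes had a median of -0.54, close to that of non-members. Txnip, an inhibitor of thioredoxin and of glucose uptake, had 50, 8 and 18 UMIs (180, 49.3 and 46.9 CPM), so it was low in both p53 AD/- and p53-/-. Tsc22d3 (GILZ), a direct glucocorticoid target, had 29, 6 and 17 UMIs. Zfp36, which is on this list and on the immediate early list, had 99, 12 and 177 UMIs (356, 73.9 and 461 CPM). Its log2 ratio of p53 AD/- over p53+/- was -2.27 (-3.27 to -1.40), with -0.66 in non-members. Lysosomal genes were lower in 4 of 13, against the same 12.2%, with a median of -0.64 and 0.50 in non-members, but Ctsb and Ctsd had 63.2% and 73.3% of their p53+/- UMIs in 1 barcode. Lamp1, a lysosomal membrane protein, had 121, 25 and 70 UMIs, of which 36.4% in p53+/- lay in 1 barcode.

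Further genes of this subgroup were named by rank. S100a4, a calcium-binding protein, had 448, 41 and 313 UMIs (1611, 253 and 815 CPM) and a log2 ratio of p53 AD/- over p53+/- of -2.67 (-3.17 to -2.21), against -0.11 in non-members; the highest barcode held 34.4% in p53+/-. Isg15, a ubiquitin-like interferon target, had 54, 113 and 145 UMIs (194, 696 and 378 CPM), with a log2 ratio of 1.84 (1.36 to 2.34) and 0.76 in non-members. Tuba1b, a tubulin, was at 191, 708 and 380 CPM, and 1 barcode held 41.7% of its UMIs in p53 AD/-. Tagln2, an actin-binding protein, was at 442, 813 and 203 CPM, with a log2 ratio of p53 AD/- over p53-/- of 2.001 (1.59 to 2.42) against 0.29 in non-members. The highest barcode held 40.2% of Tagln2 UMIs in p53 AD/-. Ccl5 had 1639, 214 and 433 UMIs, of which 66.3% in p53+/- lay in 1 barcode.

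Comparing p53-/- with p53+/-, the other dendritic members differed in genes of type 1 cells. Of 10 measured type 1 markers outside the gate, 4 were higher and 0 lower, against 5.1% and 4.29% of all genes, with a median log2 ratio of 0.83 and 0.05 in non-members. Ppt1 had 67, 78 and 421 UMIs (241, 480 and 1097 CPM), with a log2 ratio of 2.19 (1.81 to 2.58) and 0.38 in non-members. Irf8 had 143, 133 and 456 UMIs (514, 819 and 1188 CPM), with 1.21 (0.93 to 1.49) and 0.54. Wdfy4, needed for cross-presentation, had 33, 23 and 103 UMIs, with 1.18 (0.60 to 1.79). Type 1 members were 2 of 16 in p53+/- and 7 of 30 in p53-/-, and a larger share of such cells and more RNA per cell cannot be told apart in the summed counts. Within type 1 members alone, Ppt1 was at 980, 1094 and 2412 CPM, and Irf8 at 1428, 1679 and 1635 CPM.

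Immediate early genes were also higher in p53-/- than in p53+/- in other dendritic members, though less clearly apart from non-members. Of 24 measured, 7 were higher and 0 lower, against 5.1% and 4.29% of all genes, with a median log2 ratio of 0.60 and 0.38 in non-members. With at least 100 UMIs over the pair the median was 0.34. Fos had 98, 73 and 315 UMIs (352, 450 and 820 CPM), with a log2 ratio of 1.22 (0.89 to 1.56) and 0.82 in non-members, and Junb had 143, 72 and 430 UMIs, with 1.12 (0.85 to 1.41) and 1.21. Egr1 had 41, 13 and 109 UMIs, with a log2 ratio of 0.95, whose lower limit was 0.41, and -0.23 in non-members. Between p53 AD/- and p53-/-, 10 of 22 were lower and 0 higher, against 13.5% and 3.41% of all genes, with a median of -0.81 and -0.58 in non-members. Whether B and other dendritic members differ in this was not tested.

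Interferon-stimulated genes were higher in p53-/- for 5 of 19 measured and lower for 0, against 5.1% and 4.29% of all genes, with a median of 0.65 and 0.15 in non-members; the median was 0.40 with at least 1 UMI over the pair. Ly6a had 98, 128 and 281 UMIs (352, 788 and 732 CPM), and Trim30a, an interferon-induced regulator, had 32, 36 and 90 (115, 222 and 234 CPM). Both were higher than p53+/- in p53 AD/- and p53-/-. Apol7c had 35, 40 and 240 UMIs (126, 246 and 625 CPM), with a log2 ratio of p53-/- over p53+/- of 2.31 (1.80 to 2.87) and -0.23 in non-members. The highest barcode held 42.9% of Apol7c UMIs in p53-/- and 60.0% in p53+/-.

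Cdkn1a, the cell cycle inhibitor p21 and a p53 target, was present in other dendritic members, unlike in B members. It had 39, 29 and 190 UMIs (140, 179 and 495 CPM), with a log2 ratio of p53-/- over p53+/- of 1.82 (1.32 to 2.36) and 0.88 in non-members. In mature members alone it was at 226, 246 and 955 CPM. The p53-null library was thus the highest of the 3, with 25.3% of its UMIs in 1 barcode. Of 7 measured p53 targets in this pair, 1 was higher and 2 lower, against 5.1% and 4.29% of all genes, with a median of 0.25 and -0.17 in non-members; the median was 0.54 with the mean over cells and -0.011 with at least 1 UMI. Trp53 was at 89.9, 61.6 and 44.3 CPM in other dendritic members and 67.7, 71.6 and 43.2 CPM in B members.

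The macrophage members were few, and their values are given without ratios. They carried 4225, 12523 and 5920 CPM of C1qa in p53+/-, p53 AD/- and p53-/-, the first of the genes that chose them. Outside the rule, C1qc was at 1940, 6026 and 3205 CPM, and Csf1r, the receptor for the macrophage growth factor, at 417, 1074 and 494. Receptors for dying cells were present: Axl had 24, 18 and 52 UMIs, Mertk 6, 4 and 21, and the adhesion protein Vcam1 19, 47 and 101. Apoe had 128, 322 and 3696 UMIs (1840, 8436 and 15091 CPM), and Trem2, a lipid-sensing receptor, had 0, 0 and 45, so both were highest in p53-/-, which also had 10 of the 16 barcodes. Complement C3 was at 747, 1048 and 964 CPM. With at least 5 UMIs of Mki67 and Top2a, 1 of 3, 0 of 3 and 5 of 10 macrophage members counted as cycling.

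The plasmacytoid members numbered 7, 2 and 7 and carried their markers at levels that differed between libraries to different degrees. Klk1 was at 1334, 2980 and 1413 CPM. Bst2, which tethers virions and marks these cells, was at 2799, 4040 and 3416 CPM, Irf8 at 1955, 2715 and 2531, and Plac8 at 2962, 3378 and 3369 CPM. Ccr9, a receptor for homing to the thymus, was at 621, 1391 and 1925 CPM, and it was also present in non-members, most of which are thymocytes. Tlr7, the RNA sensor of plasmacytoid cells, had 11, 2 and 10 UMIs, and Tlr9, the DNA sensor, had 1, 0 and 0. Their class II level was low: the median member had 83, 110 and 35 UMIs of the 3 class II genes, close to the limit of 20 in p53-/-.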

How the data were processed

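Single-cell RNA libraries from thymus were analysed in 3 samples, 1 per genotype, with groups from the labels for genotype. The authors deposited UMI counts, not normalized, for 32285 genes in each barcode. Per the file headers these came from Cell Ranger 4.0.0, and the submitters' processing notes name GRCm38. Which annotation was used, and whether strand counted, was not given in the sources used here. Per-sample columns without a sample numbered 0.

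Barcodes were filtered and divided as the results describe, on raw UMIs. For each library and subgroup, summed UMIs were scaled to CPM over that subgroup's total, with exact Poisson intervals. Ratios have exact conditional binomial intervals and shares exact Clopper-Pearson intervals, all at 95%. In ratios, a count below 3 UMIs was raised to 3. No test across genotypes was possible with 1 library each, so no p-value is given. A gene was measured in a pair of libraries with at least 30 UMIs over the pair. Beside list members, the text names, in each pair and among genes with at least 50 UMIs, some of the 6 highest and 6 lowest ratios, and some of the 10 genes with the highest ratio of each subgroup over the other members, leaving out mitochondrial, ribosomal, receptor, immunoglobulin, histone and unnamed genes. B was the main subgroup, having 17 members in its smallest library against 15 other dendritic ones, and both are given.

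The members, and the 39 gene lists with 641 genes, were chosen with earlier results of these data known, and 9 listed names were not found among the genes. Heavy chain, Jchain, Ighd and Apoe classes of B members (a chain led with at least 3 UMIs) and the Malat1 limit were set after values had been seen. Doublets were not called. Alternatives changed the class II, gene, mitochondrial and gate limits, the scaling (TMM factors of edgeR 4.0.16 in R 4.3.3), the UMI minimum, the sum, and the members kept. Ratio and interval code was tested on simulated data. The code ran on matplotlib 3.10.9, pandas 2.3.3, scipy 1.17.1 and numpy 2.4.6 in Python 3.11.15. Promoter sequences are RefSeq's on GRCm38.p6.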

Additional observations from a re-analysis of the deposited data

Results flagged for a closer look

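Some class II-high barcodes lay outside the comparisons. Barcodes with at least 20 class II UMIs but more than 1 epithelial UMI numbered 15, 17 and 28 in the libraries of p53+/-, p53 AD/- and p53-/-. A further 2, 3 and 2 barcodes reached the class II limit but failed the limits on genes or mitochondrial UMIs.

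Dnajc3, an endoplasmic reticulum co-chaperone, lay on opposite sides in the 2 larger subgroups for p53 AD/- over p53+/-, with a log2 ratio of -1.27 in B members and 1.62 in other dendritic members. The difference was not tested.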

How the results depend on the processing

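No paired analysis was possible because there was 1 library per genotype, and leaving out a library would leave a genotype empty. Direction and size held in 185 of 189 recomputed shares, 65 of 102 gene counts, 687 of 840 list medians and 531 of 586 ratios of named genes, and 6 list medians and 11 ratios reversed. For 35 further ratios of genes named from lists, recomputed without thymocyte-high members, barcodes low in Malat1 or secreting B members (added after seeing the data), 74 of 87 values kept their direction and their side of a ratio of 2 and 1 reversed. The cause of the changes below was not tested, except that a UMI minimum sets how many genes can be counted.

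The plasmacytoid share of p53-/- members, 6.80%, was 2.27% with a class II minimum of 40 UMIs and 0% with class II at least 0.5% of UMIs. The type 2 share of other dendritic members was 0% without barcodes low in Malat1 in p53 AD/- (6.67% otherwise) and 0% without thymocyte-high members in p53-/- (3.33%).

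Counts of genes past a ratio of 2 depended on the UMI minimum. With at least 100 UMIs, the numbers higher and lower in B members were 24 and 36 for p53 AD/- over p53+/-, then 38 and 18 for p53-/- over p53+/-, then 12 and 47 for p53 AD/- over p53-/-, and in other dendritic members 17 and 35, 26 and 17, and 11 and 44. With at least 1 UMI they were 500 and 909, 477 and 839, and 997 and 612 in B members, and 671 and 878, 556 and 944, and 552 and 694 in other dendritic members. For all members together, the count lower was 485 for p53 AD/- over p53+/-, and for p53 AD/- over p53-/- 106 were higher and 728 lower; 268 were higher for p53-/- over p53+/-. With the mean over cells, 171 were lower in B members of p53-/- than of p53+/-, and in other dendritic members 211 were higher for p53 AD/- over p53+/-, 291 higher and 223 lower for p53-/- over p53+/-, and 137 higher for p53 AD/- over p53-/-. Without thymocyte-high members, 117 were lower in B members of p53 AD/- than of p53+/-. Without genes led by 1 barcode, an alternative added after seeing the data, 69 were lower in B members of p53-/- than of p53+/-.

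List medians that reversed, as log2 ratios, were mature dendritic markers in B members for p53-/- over p53+/- (from 0.65 to -0.0050 for all members together), lysosome genes in other dendritic members for p53 AD/- over p53+/- (from -0.64 to 0.096 for all members), cell cycle genes there (from 0.84 to -0.096 without barcodes low in Malat1 and -0.060 for all members), thymocyte markers there for p53-/- over p53+/- (from -0.52 to 0.77 with the mean over cells) and p53 targets there for p53 AD/- over p53-/- (from -0.79 to 0.019 with at least 1 UMI). For all members together, which mixes the subgroups, immediate early genes stood at -1.24 for p53 AD/- over p53-/-, class II pathway genes at 0.23, interferon-stimulated genes at 0.21, glycolysis genes at 0.14, mitochondrially encoded genes at -1.14 and glucocorticoid genes at -1.20 for p53 AD/- over p53+/-, and type 1 markers at 0.18 and interferon-stimulated genes at 0.23 for p53-/- over p53+/-. Named genes that reversed were, without secreting B members (added after seeing the data), Jchain (3.33) and Jun (0.28) for p53 AD/- over p53+/-, Jun (0.54) for p53-/- over p53+/-, and Slpi (1.76) and Jchain (0.088) for p53 AD/- over p53-/-. Tmem176b in B members for p53 AD/- over p53+/- went from 2.31 to -0.49 without barcodes low in Malat1, also added afterwards, and to -0.43 with the mean over cells. For all members together Gadd45b (-0.0070) reversed in p53-/- over p53+/-, Apoe (1.03) in p53 AD/- over p53+/-, Cox6a2 (-0.61) and Ctsb (0.58) in p53-/- over p53+/-, and Cox6a2 (0.47) in p53 AD/- over p53-/-.

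Depth limits the smaller subgroups: plasmacytoid members held 15099 UMIs in p53 AD/- and macrophage members 38169, so genes at a few CPM could not be seen there.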

Other observations

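Transcripts of immunoglobulin light chain were also counted outside the B members. Igkc was at 159, 5.31 and 17.0 CPM in non-members of p53+/-, p53 AD/- and p53-/-, and at 137, 437 and 46.9 CPM in other dendritic members. Of the latter, 1 barcode held 29 of 38 UMIs in p53+/- and 64 of 71 in p53 AD/-, each with 1 Cd79a UMI, just under the limit for B members, and without the highest barcode of each library the levels were 32.8, 45.5 and 19.0 CPM. These stand against 5337 CPM in Ighd-positive and 7119 CPM in Ighd-zero B members over the 3 libraries. The 4 secreting B members held 27658 Igkc UMIs. The other dendritic barcode of p53 AD/- with 64 Igkc UMIs also had 4 Ms4a1 and 3 Cst3 UMIs. It counted as 1 of the 6 mature members of that library.

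Within mature dendritic members, Ccl5 stood at 10276, 3515 and 2633 CPM and Ccl22 at 1269, 1807 and 2580 CPM in p53+/-, p53 AD/- and p53-/-. The orders of these chemokines were opposite, but 66.3% of the Ccl5 UMIs of p53+/- other dendritic members and 51.0% of their Ccl22 UMIs lay in 1 barcode. In p53 AD/-, 26 Ccl22 UMIs lay in the mature member with 64 Igkc UMIs given above.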
